A study of Mus musculus with 6 samples.

Results

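The genes described here are 39 mouse genes of S phase and DNA replication, taken by symbol from the 25215 genes with deposited values, and all 39 were found and passed the filter on low values. They are a set commonly used to score S phase in single cells, and they were grouped here by role: 8 genes of origin licensing and the replicative helicase, 7 of the polymerases, the sliding clamp and Okazaki fragments, 3 of nucleotide supply, 9 of checkpoint, repair and fork protection, 8 of chromatin and DNA methylation, and 4 regulators and others. In a dividing cell, origins of replication are licensed in G1 by loading of the MCM helicase, which Cdc45 and the GINS complex activate at the start of S phase. Primase and DNA polymerases then copy the strands behind it, held on DNA by the PCNA clamp, while ribonucleotide reductase and thymidylate synthase supply deoxynucleotides and histone chaperones rebuild chromatin. Many of these genes are switched on by E2F transcription factors as cells enter the cycle, so that a growing tumor holds cells with high and cells with low levels of them.

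The values came from single-cell RNA sequencing of mouse melanoma grown under the skin, with full-length Smart-seq libraries made on the ICELL8 system. All mice were C57BL/6, received 50000 tumor cells on day 0 on both flanks, and gave tumors on day 15. The 3 conditions, with 2 mice each, were the line B16-F10 without treatment (B16), the same line in mice that were given anti-PD1, 200 ug a time, on day 5, day 8 and day 11 (B16PD1), and an untreated line called R499. R499 (Res499) was raised from B16-F10 that relapsed in a mouse given radiation and anti-CTLA4, so a difference between R499 and B16 is one between single lines, each grown in 2 mice. Whether the flanks of a mouse were pooled was not stated. Cells were sorted as CD45-negative, which depletes immune cells, and each tumor is named here by its condition and the number in its cell names. Subclones of cells were not used.

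Values were TPM, a count of transcripts corrected for their length and for the total of the cell, so levels of different genes can be compared, whereas no value can be traced back to reads. After removal of cells with 1000 or fewer genes detected (TPM above 0) or with 10% or more mitochondrial TPM, 507 of 602 cells remained, 75 to 91 in each tumor. Retained cells had a median of 3647 and 3388.5 genes detected (B16), 3807.5 and 3838.5 (B16PD1) and 3141 and 3682 (R499), and the share of cells retained was lowest in R499 (80.2% and 75%, against 86.0% to 90.1% in the other tumors). All 7 melanocyte markers examined (Dct, Tyrp1, Mlana, Pmel, Tyr, Mitf and Sox10) were found in every tumor, with a summed mean of 14048 to 17188 TPM. Of 9 immune markers, 3 to 6 were found in a tumor, with a summed mean of 7.0 to 233 TPM, fibroblast and endothelial markers reached at most 2.14 and 0.26 TPM, and keratinocyte markers were at 0.

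Unless another scale is named, the level of a gene in a tumor is log2(TPM + 1) averaged over the retained cells, and a difference is a difference of these levels between conditions, which understates the change of low genes. Levels are listed as the values of both tumors of a condition, followed by its name. Differences were tested with limma on the 6 tumor levels of all 11264 genes tested, two-sided, with Benjamini-Hochberg adjustment over all of them. With 2 tumors against 2, an exact permutation test cannot go below p = 0.333, so tumors that do not overlap between conditions are given as a description, beside the share of all genes of which the same holds.

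Promoters of the 4 members that varied most together with the rest over cells (Rrm2, Uhrf1, Mcm6 and Mcm5) are printed here because E2F factors act through such sequence. Each holds 250 bases before and 50 bases after an annotated start, 5′ to 3′ on the strand of the gene, from RefSeq on GRCm38.p6. Capitals mark matches to the E2F motif letters TTTCCCGC, TTTCGCGC, TTTGCCGC or TTTGGCGC on either strand, and matches may overlap.
Rrm2, chr12:24708004-24708303, plus strand: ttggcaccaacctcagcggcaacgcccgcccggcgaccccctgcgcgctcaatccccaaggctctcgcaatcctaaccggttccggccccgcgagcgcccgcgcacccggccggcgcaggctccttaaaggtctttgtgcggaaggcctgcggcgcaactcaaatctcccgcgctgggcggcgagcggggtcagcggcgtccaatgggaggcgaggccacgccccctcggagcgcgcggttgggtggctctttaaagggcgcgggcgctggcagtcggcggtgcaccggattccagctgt
Uhrf1, chr17:56304063-56304362, plus strand: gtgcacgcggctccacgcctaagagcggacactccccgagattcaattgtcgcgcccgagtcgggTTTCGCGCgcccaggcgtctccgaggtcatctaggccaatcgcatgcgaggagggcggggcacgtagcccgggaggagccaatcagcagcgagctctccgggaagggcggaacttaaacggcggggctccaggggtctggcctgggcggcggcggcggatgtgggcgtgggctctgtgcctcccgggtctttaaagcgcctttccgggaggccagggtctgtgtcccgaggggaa
Mcm6, chr1:128359656-128359955, minus strand: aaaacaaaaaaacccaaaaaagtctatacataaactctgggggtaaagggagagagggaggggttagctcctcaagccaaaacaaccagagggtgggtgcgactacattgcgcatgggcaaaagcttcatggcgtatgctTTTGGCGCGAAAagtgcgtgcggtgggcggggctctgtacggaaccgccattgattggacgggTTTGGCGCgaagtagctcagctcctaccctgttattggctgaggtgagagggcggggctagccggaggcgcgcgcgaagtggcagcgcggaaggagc
Mcm5, chr8:75109259-75109558, plus strand: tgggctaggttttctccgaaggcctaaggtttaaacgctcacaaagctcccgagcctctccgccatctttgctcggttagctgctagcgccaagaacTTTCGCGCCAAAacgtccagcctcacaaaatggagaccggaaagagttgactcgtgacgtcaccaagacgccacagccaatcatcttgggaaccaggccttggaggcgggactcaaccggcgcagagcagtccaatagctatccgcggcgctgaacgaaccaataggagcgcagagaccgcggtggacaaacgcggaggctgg
The window of Mcm6 held 3 E2F matches, that of Mcm5 held 2, that of Uhrf1 held 1 and that of Rrm2 held none of these letters. Where RefSeq gave several starts of a gene, a match in any window counted. A window was found for 29 of the 39 members, and 12 of the 29 (41.4%) held at least 1 match, against 704 of 27025 genes with a window (2.605%). Those 27025 were not limited to the genes tested here. In a second list of replication genes, described further on, 24 of the 62 with a window held a match (38.7%), a share close to that of the members. The 12 were Mcm5, Mcm6, Cdc6, Pola1, Pold3, Clspn, Dtl, Uhrf1, Hells, Cdca7, Casp8ap2 and Ubr7. The letters CCAAT, the binding motif of NF-Y, stood on either strand for 20 of the 29 members (69.0%), against 41.1% of all genes with a window and 51.6% of the second list.

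Detection differed widely among the members. Over all retained cells, Rrm1 was detected in 87.2% of cells (95% Wilson interval 84.0% to 89.8%, which like the other intervals of shares covers counting error only), Pcna in 83.4%, Rrm2 in 80.1%, Mcm6 in 77.1% and Rfc2 in 75.3%. At the other end, Ung was detected in 9.07% (6.87% to 11.9%), Clspn in 9.86% and Wdr76 in 12.4%, and no member was detected in fewer than 5% of cells. By mean TPM the order was Pcna (199), Rfc2 (196), Tipin (191), Rrm2 (159), Tyms (155) and Rrm1 (149), down to Wdr76 (4.02) and E2f8 (3.77), a repressor of the E2F family. Single cells reached 3995 TPM for Brip1, 3526 TPM for Gmnn and 3188 TPM for Rrm1, so for the rarer members a mean TPM could rest on few cells. In the plot of levels by tumor, Pcna, Rfc2, Rrm1 and Rrm2 were at 4.88 or more in each of the 6 tumors.

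**Figure D1:**
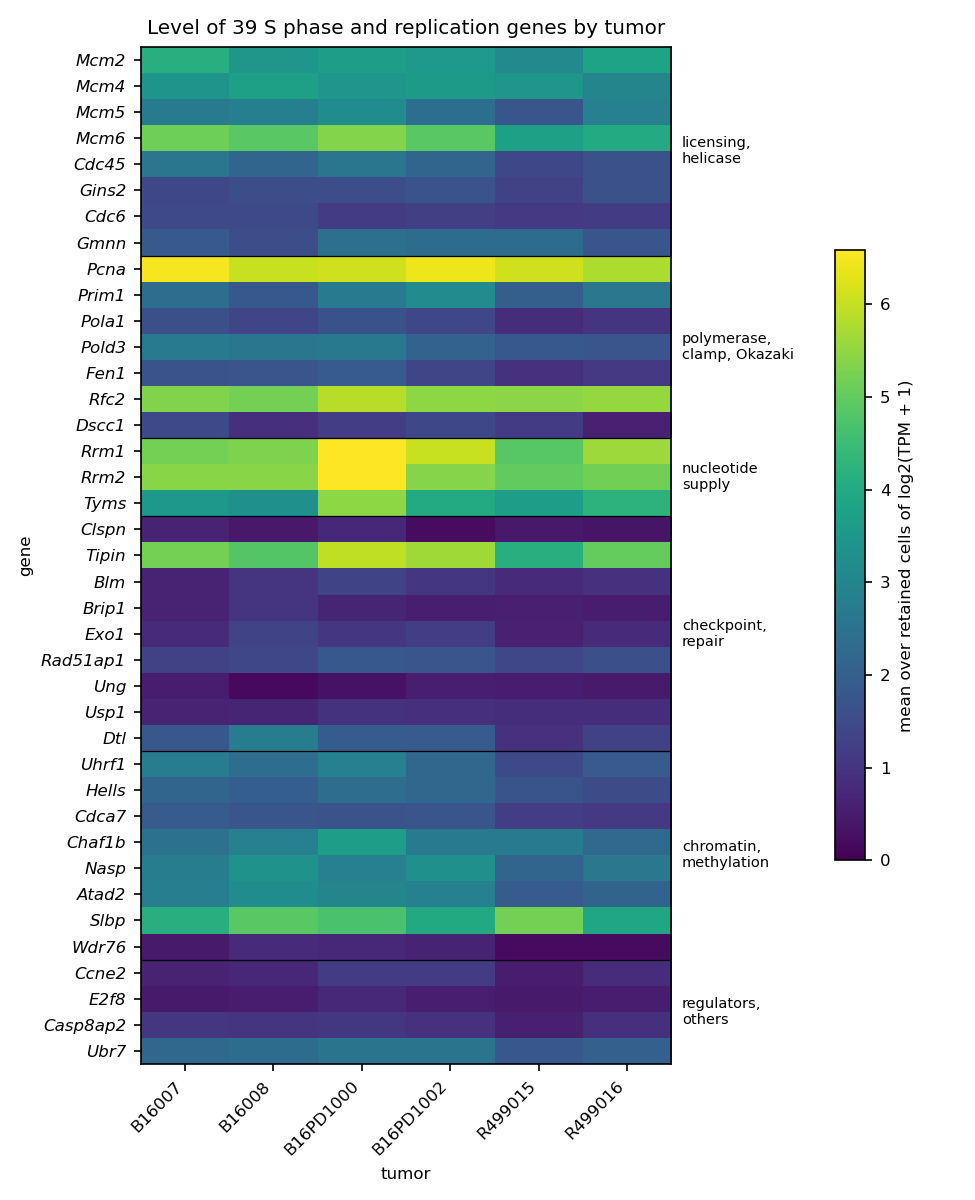
Mean over retained cells of log2(TPM + 1) for the 39 genes (rows, grouped by role) in the 6 tumors (columns), with lighter colors for higher levels. Rrm1 and Rrm2 each reached 6.58 in B16PD1000, and Wdr76 was at 0.18 and 0.21 in the R499 tumors.

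R499 against B16 asks how the relapsed line differs from its parent without treatment. Levels in both R499 tumors were below those of both B16 tumors for some genes of every role. Among them were Mcm6 and Cdc45 of the helicase, Pold3, Fen1 and Pola1 of Okazaki fragment synthesis, Uhrf1, Hells and Cdca7 of DNA methylation, and Rrm2 of nucleotide supply. Mcm2, Mcm4, Mcm5 and Gins2 of the helicase and Rrm1 of nucleotide supply overlapped, and Tyms was above. No member passed an adjusted p of 0.05, which 7 of all 11264 genes did (0.0621%). At an unadjusted p under 0.05, 10 members were found, all lower in R499, which is 25.6% of the members against 10.5% of all genes. The R499 tumors were both below both B16 tumors for 18 members (46.2%, against 30.1% of all genes) and both above for 3 members, Usp1, Rfc2 and Tyms (7.69%, against 11.6%). The median difference of the members was -0.32, against -0.07 for all genes. The mean number of genes detected per cell was also lower in the R499 tumors (3332 and 3456) than in the others (3496 to 3787), and its part in these differences was not tested beyond the values that follow. With the mean of each cell subtracted, which moved the median difference of all genes to 0.03, the median of the members was -0.22, and 15 members were below without overlap (38.5%, against 17.8% of all genes) and 7 above (17.9%, against 24.0%). With cells weighted so that every tumor had the same spread over quartiles of genes detected, the median of the members was -0.24 against -0.03 for all genes, with 17 below (43.6%, against 24.4%) and 6 above (15.4%, against 15.8%).

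Among the helicase genes, Mcm6 and Cdc45 were the lowest in R499 relative to B16. Mcm6, a subunit of the MCM helicase at chr1:128331590-128359664 (minus strand, GENCODE on GRCm38), had levels of 5.13 and 4.90 (B16), 5.35 and 4.89 (B16PD1) and 3.73 and 4.03 (R499). Both R499 tumors were below the other 4, and Mcm6 was detected in 63.0% and 72.0% of R499 cells against 84.6% and 76.7% of B16 cells. The difference of R499 minus B16 was -1.14 (SE 0.34, adjusted p = 0.309 by limma). Cdc45, which joins MCM to form the active helicase, had levels of 2.60 and 2.16 (B16), 2.58 and 2.14 (B16PD1) and 1.42 and 1.63 (R499), and again the R499 tumors stood below the rest. Its difference was -0.85 (SE 0.31, adjusted p = 0.38 by limma). A few exon bases of Cdc45 (5.96%) overlap Ufd1 on the opposite strand, and counting by strand was not stated.

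The other helicase genes overlapped between the tumors of R499 and B16 or differed little. Mcm5, another helicase subunit, had levels of 2.71 and 2.83 (B16), 3.19 and 2.39 (B16PD1) and 1.75 and 2.87 (R499), so that its R499 tumors were the lowest and the second highest of the 6. Mcm4 had levels of 3.42 and 3.75 (B16), 3.46 and 3.59 (B16PD1) and 3.46 and 2.99 (R499), and these overlapped in all 3 comparisons. Mcm2 and Gins2, a GINS subunit, overlapped as well, with differences of -0.35 and -0.04. Cdc6, which loads MCM at origins, was below B16 in both R499 tumors by a small margin (-0.32, SE 0.25). Gmnn, which encodes geminin, the inhibitor of licensing, was the 1 gene of this role with a positive difference (0.33, SE 0.31). The median difference over the 8 genes was -0.35.

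Of the polymerase and clamp genes, Pold3, Fen1 and Pola1 were below B16 in both R499 tumors, while Pcna, Prim1 and Dscc1 overlapped. Pold3, an accessory subunit of DNA polymerase delta, had levels of 2.71 and 2.58 (B16), 2.67 and 2.06 (B16PD1) and 1.80 and 1.74 (R499). Its difference of R499 minus B16 was -0.87 (SE 0.32, adjusted p = 0.378 by limma). Fen1, the nuclease that trims Okazaki fragment flaps, had levels of 1.68 and 1.74 (B16), 1.91 and 1.37 (B16PD1) and 0.93 and 1.09 (R499). The R499 tumors were again the lowest, with a difference of -0.69 (SE 0.29, adjusted p = 0.403 by limma). However, 78.8% of the exon bases of Fen1 overlap Gm10143 on the opposite strand, so reads of the pair may not have been told apart. Tmem258, also on the opposite strand, overlaps 5.37% of the exon bases of Fen1 and averaged 437 TPM. Pola1, the catalytic subunit of DNA polymerase alpha, had levels of 1.61 and 1.38 (B16), 1.65 and 1.41 (B16PD1) and 0.86 and 1.0 (R499), with a difference of -0.56 (SE 0.26, adjusted p = 0.472 by limma). When TPM was first averaged over cells and the log2 of that mean plus 1 was taken, which gives more weight to the highest cells, Pola1 and Pold3 turned to 0.32 and 0.083. Pola1 averaged 21.7 TPM in R499015 and 6.30 TPM in R499016, against 10.5 and 8.32 TPM in B16, and its highest cell held 1442 TPM. Both genes were thus detected in a smaller share of R499 cells, while their mean TPM overlapped between the lines.

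Pcna, the sliding clamp, was the most abundant member and had levels of 6.49 and 6.03 (B16), 6.09 and 6.40 (B16PD1) and 6.12 and 5.76 (R499), which overlapped in every comparison. Rfc2, a subunit of the clamp loader, had levels of 5.33 and 5.19 (B16), 5.87 and 5.46 (B16PD1) and 5.44 and 5.54 (R499). Both R499 tumors were slightly above both B16 tumors, by 0.23 (SE 0.33), which was less than its SE. A pseudogene copy, Pcna-ps2, held a mean of 9.27 TPM and was detected in 91 cells, so some reads of Pcna may have been assigned to it.

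Among the members, the chromatin and DNA methylation genes held the lowest median of the roles, -0.55 over 8 genes. Of the 8, 6 were below B16 in both R499 tumors, beside 30.1% of all genes. In the second list of replication genes, described further on, this role did not stand apart. Atad2, a bromodomain ATPase of replicating chromatin, had levels of 2.80 and 3.19 (B16), 2.99 and 2.90 (B16PD1) and 1.93 and 2.10 (R499). The R499 tumors stood apart from all others, and the difference of R499 minus B16 was -0.98 (SE 0.31, adjusted p = 0.337 by limma). Uhrf1, which binds hemimethylated DNA behind the fork and recruits the maintenance methyltransferase, had levels of 2.75 and 2.35 (B16), 2.86 and 2.16 (B16PD1) and 1.45 and 1.90 (R499), and it was detected in 27.2% and 37.3% of R499 cells against 49.5% and 43.0% of B16 cells. Its difference was -0.87 (SE 0.34, adjusted p = 0.38 by limma). Cdca7, a partner of the remodeler Hells, had levels of 1.90 and 1.74 (B16), 1.69 and 1.75 (B16PD1) and 1.18 and 1.08 (R499) and differed by -0.68 (SE 0.28, adjusted p = 0.394 by limma).

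Hells itself had levels of 2.16 and 1.97 (B16), 2.35 and 2.16 (B16PD1) and 1.70 and 1.53 (R499), below B16 in both R499 tumors by -0.45 (SE 0.29). Wdr76, a WD repeat protein, was rare everywhere, with levels of 0.48 and 0.80 (B16), 0.76 and 0.65 (B16PD1) and 0.18 and 0.21 (R499), and was detected in 4 of 81 and 4 of 75 R499 cells against 10 of 91 and 16 of 86 B16 cells. Its difference was -0.45 (SE 0.15, adjusted p = 0.349 by limma), which on this scale understates the change of so low a gene. Nasp, a histone chaperone, was also below B16 in both R499 tumors (-0.66, SE 0.34). Chaf1b, a subunit of the chromatin assembly factor CAF-1, and Slbp, which binds the stem-loop of histone mRNAs, overlapped, and Slbp was highest of all in R499015 and lowest of all in R499016, at 5.20 and 3.90.

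Among the 9 checkpoint and repair genes, Dtl had the lowest level in R499 relative to B16, with a difference close to that of Mcm6. Dtl, which directs the licensing factor CDT1 to destruction in S phase and lies at chr1:191537356-191575544 (minus strand), had levels of 1.79 and 2.76 (B16), 1.92 and 1.90 (B16PD1) and 0.95 and 1.31 (R499). It was detected in 55.8% of cells of B16008 and 37.4% of B16007, against 24.7% and 26.7% in R499, and the difference of R499 minus B16 was -1.14 (SE 0.34, adjusted p = 0.299 by limma). Without B16008 it was -0.66 and without B16007 it was -1.63, so its size depended on the B16 tumor used. Exo1, an exonuclease, and Brip1, a helicase that binds BRCA1, were below B16 in both R499 tumors by -0.37 and -0.27. Usp1, which removes ubiquitin from PCNA, was above in both by 0.19 (SE 0.19). Clspn, Tipin, Blm, Rad51ap1 and Ung overlapped between R499 and B16, and the median over the role was -0.14.

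No gene of nucleotide supply and no regulator had an unadjusted p under 0.05 between R499 and B16. Rrm1, the large subunit of ribonucleotide reductase (chr7:102441695-102469771, plus strand), had levels of 5.21 and 5.31 (B16), 6.58 and 6.02 (B16PD1) and 4.88 and 5.63 (R499), and its 2 R499 tumors lay on either side of the B16 tumors. Rrm2, the small subunit, had levels of 5.42 and 5.42 (B16), 6.58 and 5.39 (B16PD1) and 5.01 and 5.19 (R499), with R499 below B16 by a margin inside the error (-0.32, SE 0.38). Tyms, thymidylate synthase (chr5:30058202-30073617, minus strand), had levels of 3.50 and 3.30 (B16), 5.47 and 4.02 (B16PD1) and 3.69 and 4.26 (R499), above B16 in both R499 tumors (0.57, SE 0.42). The median over these 3 genes was -0.01, and it turned to 0.09 with the mean of each cell subtracted. Of the regulators, Ubr7 and Casp8ap2, a factor of histone mRNA processing, were below B16 in both R499 tumors, with a largest difference of -0.36, while Ccne2 (cyclin E2) and E2f8 overlapped.

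A lower tumor level can come from fewer cells in which a gene is detected or from lower values in those cells, and both were looked at for R499 and B16. All 10 members with an unadjusted p under 0.05 were detected in a smaller share of cells in both R499 tumors than in both B16 tumors, and over all members 18 were (46.2%, against 29.6% of all genes). The median TPM of the detecting cells was lower in both R499 tumors for 4 of the 10 and for 9 of the 39 (23.1%, against 18.9% of 10416 genes with a detecting cell in each of the 4 tumors), and it was higher in both for 6 of the 39 (15.4%, against 17.2%). Since the 10 were chosen for a lower mean level, which the share of cells enters, their shares describe that level and are no separate evidence. Cdc45 for example had medians of 51.5 and 77.0 TPM in the detecting cells of B16 and of 87.5 and 41.2 TPM in those of R499. A share of cells depends on how deeply each cell was read, and the reads per cell are unknown.

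**Figure D2:**
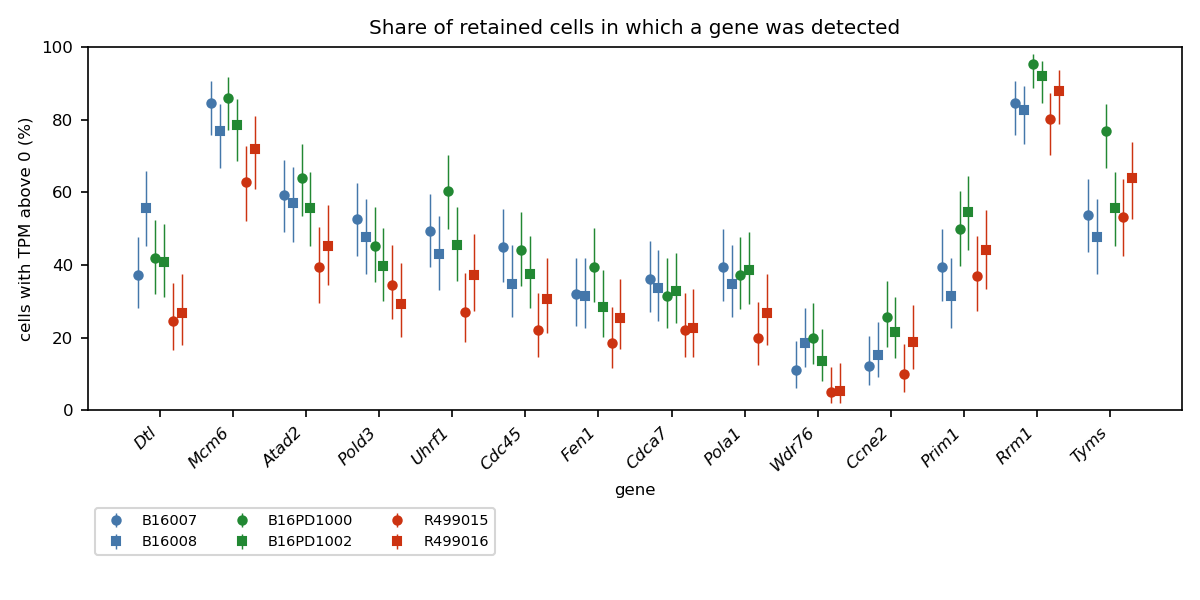
Percent of retained cells of each tumor with TPM above 0 (vertical axis, points with 95% Wilson intervals) for the 10 members whose unadjusted p was under 0.05 between R499 and B16, followed by the 4 between B16PD1 and B16. Circles and squares are the 2 tumors of a condition. For Dtl the R499 tumors were at 24.7% and 26.7%, below 37.4% to 55.8% in the other tumors.

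In B16PD1 against B16, which asks how the same line differed after anti-PD1, levels in both B16PD1 tumors were above those of both B16 tumors for Tyms and Rrm1 of nucleotide supply, Prim1 of primase and Ccne2, while most members overlapped. No member and no gene of the 11264 passed an adjusted p of 0.05 (0%), and 4 members had an unadjusted p under 0.05 (10.3%, against 4.69% of all genes), all higher in B16PD1. Both B16PD1 tumors were above both B16 tumors for 14 members (35.9%, against 17.9% of all genes) and below for Cdc6 alone (2.56%, against 15.4%). The median difference of the members was 0.07, against 0.01 for all genes. With the mean of each cell subtracted, 11 members were above (28.2%, against 14.4% of all genes) and 3 below (7.69%, against 19.2%). With cells weighted by genes detected, 12 were above (30.8%, against 12.6%) and 4 below (10.3%, against 20.4%). On the log2 of the mean TPM plus 1, 8 were above (20.5%, against 12.3%) and 6 below (15.4%, against 21.1%). The split depended on single tumors. Without B16PD1000, 15 were above (38.5%, against 33.6%) and 12 below (30.8%, against 32.0%), shares close to those of all genes. Without B16PD1002, 23 were above (59.0%, against 36.4%) and 2 below (5.13%, against 29.9%).

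Tyms and Rrm1 had the largest differences of B16PD1 minus B16. For Tyms, detected in 76.7% and 55.7% of B16PD1 cells against 53.8% and 47.7% of B16 cells, the difference was 1.34 (SE 0.42, adjusted p = 0.989 by limma). B16PD1000 stood well above every other tumor at 5.47, and without it the difference was 0.62, against 2.07 without B16PD1002. For Rrm1, detected in 95.3% and 92.0% of B16PD1 cells against 84.6% and 82.6% of B16 cells, the difference was 1.04 (SE 0.36, adjusted p = 0.989 by limma). Rrm2 overlapped, since only B16PD1000 was above B16, and its difference was 0.57 (SE 0.38). The median over the 3 genes was 1.04, and it was 1.01 with the mean of each cell subtracted and 1.0 with the weighted cells.

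Prim1 and Ccne2 were the other members with an unadjusted p under 0.05. Prim1, the catalytic subunit of primase, had levels of 2.36 and 1.81 (B16), 2.70 and 3.17 (B16PD1) and 1.98 and 2.61 (R499), with a difference of 0.85 (SE 0.34, adjusted p = 0.989 by limma). Both B16PD1 tumors were the highest of the 6. Ccne2, the cyclin E2 gene that drives entry into S phase, had levels of 0.65 and 0.77 (B16), 1.14 and 1.15 (B16PD1) and 0.50 and 0.84 (R499), with a difference of 0.44 (SE 0.20, adjusted p = 0.989 by limma), and 17.4% of its exon bases overlap Ints8 on the opposite strand.

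Tipin and Gmnn followed. Tipin, a fork protection factor that binds Timeless, had levels of 5.21 and 4.83 (B16), 5.95 and 5.63 (B16PD1) and 4.12 and 5.02 (R499), and its difference was 0.77 (SE 0.37, adjusted p = 0.989 by limma). The order was B16PD1, then B16, with R499 spread from the lowest value to one between the B16 tumors. Gmnn had levels of 1.85 and 1.57 (B16), 2.42 and 2.32 (B16PD1) and 2.32 and 1.77 (R499), with a difference of 0.66 (SE 0.31, adjusted p = 0.989 by limma), but R499015 was level with the lower of the B16PD1 tumors. The other 8 genes above B16 in both B16PD1 tumors were Gins2, Rfc2, Blm, Rad51ap1, Usp1, Hells, E2f8 and Ubr7, with differences of 0.13 to 0.43. The medians of the licensing, polymerase and chromatin roles lay between 0.00 and 0.03.

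The share of detecting cells and the values in them were again looked at apart. In both B16PD1 tumors 12 of the 39 members were detected in a larger share of cells (30.8%, against 21.4% of all genes), among them the 4 with an unadjusted p under 0.05, which were chosen on a level that the share enters. The median TPM of the detecting cells was higher in both B16PD1 tumors for 4 of the 39 (10.3%, against 9.55% of 10567 genes) and lower for 9 (23.1%, against 27.3%).

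R499 against B16PD1 uses the same R499 and B16PD1 tumors as the comparisons above, so it is not independent of them. No member passed an adjusted p of 0.05, which 8 genes did (0.071%), and 15 members had an unadjusted p under 0.05 (38.5%, against 10.2% of all genes), all lower in R499. Both R499 tumors were below both B16PD1 tumors for 27 members (69.2%, against 31.3% of all genes) and above for none, which 10.2% of all genes were. The median difference was -0.48, against -0.09 for all genes. With the mean of each cell subtracted, which moved the median of all genes to 0.05, the median of the members was -0.34, with 20 below (51.3%, against 16.5% of all genes) and 2 above (5.13%, against 27.7%). With the weighted cells it was -0.39, with 20 below (51.3%, against 19.5%) and 0 above (against 18.0%).

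The largest differences were those of Mcm6 (-1.24), Tipin (-1.22), Rrm1 (-1.05), Atad2 (-0.93) and Rrm2 (-0.89), with SEs of 0.31 to 0.38 and adjusted p of 0.279 to 0.455. Rrm2 rested on B16PD1000: without that tumor its difference was -0.30. The other members with an unadjusted p under 0.05 were Cdc45, Uhrf1, Dtl, Hells, Ubr7, Fen1, Pola1, Cdca7, Wdr76 and Ccne2, with differences of -0.84 to -0.48. Ubr7, a protein with a UBR box, had levels of 2.21 and 2.32 (B16), 2.53 and 2.54 (B16PD1) and 1.78 and 2.01 (R499), so its R499 tumors were the lowest of the 6. Over the roles, the median was -0.89 for nucleotide supply, -0.67 for chromatin and DNA methylation, -0.59 for polymerase and clamp, -0.37 for the regulators, -0.31 for licensing and -0.28 for checkpoint and repair. The share of detecting cells was lower in both R499 tumors for 29 of the 39 (74.4%, against 37.2% of all genes), and the median TPM of those cells was lower for 4 of the 39 (10.3%, against 11.4% of 10489 genes) and higher for 5 (12.8%, against 26.6%).

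The counts at an unadjusted p under 0.05 moved with single tumors. In each comparison, leaving out any 1 of its tumors took some of its members above that limit. Such a fit leaves 1 tumor in a condition, so its counts are not given, and a loss of power cannot be told apart from a change in the members. Mean genes detected as a covariate leaves 2 residual degrees of freedom. With it, 3 members were under the limit in R499 minus B16 (7.69%, against 6.91% of all genes). In B16PD1 minus B16 there were 0 (against 4.39%), and in R499 minus B16PD1 there were 2 (5.13%, against 5.36%).

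**Figure D3:**
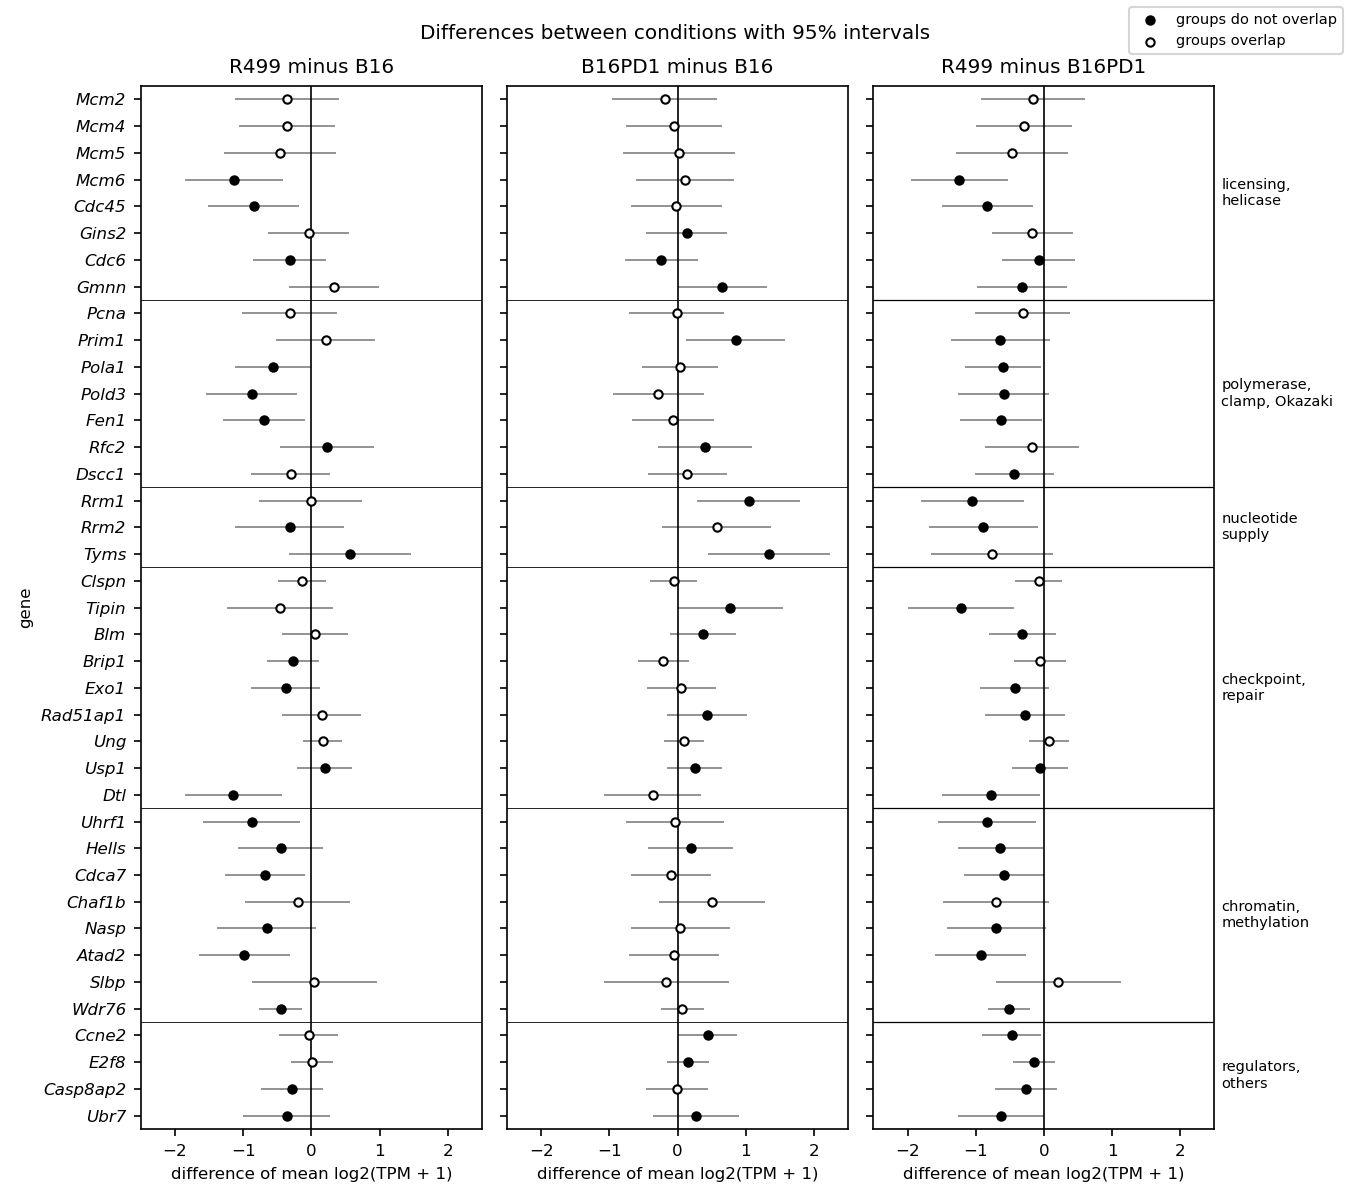
Difference of mean log2(TPM + 1) between conditions for the 39 genes (rows, grouped by role), with 95% intervals from limma and filled points where the 2 tumors of each condition do not overlap. Filled points lie left of 0 for 18 genes in R499 minus B16 and for 27 in R499 minus B16PD1, and right of 0 for 14 in B16PD1 minus B16.

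A second list of 75 replication genes outside the 39 (origin recognition, further MCM and GINS subunits, polymerases, clamp loaders, nucleotide enzymes and regulators) was described the same way. Its most abundant genes were H2afz, a histone variant gene, at 1881 TPM, Cdk2, the S phase kinase, at 377 TPM, and Pole4, a small subunit of DNA polymerase epsilon, at 202 TPM. No gene of it passed an adjusted p of 0.05 in any comparison. In R499 minus B16, 22 of the 75 were below without overlap (29.3%, beside 30.1% of all genes) and 6 above (8.0%, beside 11.6%). An unadjusted p under 0.05 was found for 9 (12.0%, beside 10.5% of all genes). Lower were Orc1 and Orc2 of the origin recognition complex (-0.67 and -1.10), the licensing factor Cdt1 (-1.11), Mcm10 (-0.66), Pole4 (-0.87), the clamp loader subunits Rfc1 (-1.20) and Chtf8 (-1.28) and deoxycytidine kinase Dck (-0.86), with SEs of 0.17 to 0.53. Orc6 was higher (0.74, SE 0.33). The contrast between roles seen among the members was not repeated in this list. Its chromatin genes had a median difference of -0.20, with 1 of 6 below without overlap. Its nucleotide genes had a median of -0.21, with 4 of 8 below. Among the members these roles had medians of -0.55 and -0.01.

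In B16PD1 minus B16, 23 of the 75 were above without overlap (30.7%, beside 17.9% of all genes) and 8 below (10.7%, beside 15.4%). An unadjusted p under 0.05 was found for 9 (12.0%, beside 4.69% of all genes). Higher were Orc6 (0.94), the primase subunit Prim2 (0.81), Pole (0.37), the nucleotide enzymes Dut (0.76) and Dtymk (0.82), Timeless (0.29) and Ccne1 (0.40). Lower were Brca1 (-1.03) and Chtf18 (-0.18), with SEs of 0.07 to 0.37 over the 9. The 8 nucleotide genes of this list had a median difference of 0.47, and that of all 75 was 0.15. In R499 minus B16PD1, which shares its tumors with the others, 36 of the 75 were below without overlap (48.0%, beside 31.3%). An unadjusted p under 0.05 was found for 16 (21.3%, beside 10.2% of all genes), all lower in R499, of which Dck (-1.11) and Shmt1 (-1.04) were the furthest. The 53 G2/M genes had median differences of 0.00 in R499 minus B16, 0.28 in B16PD1 minus B16 and -0.28 in R499 minus B16PD1, where the S phase genes had -0.32, 0.07 and -0.48. With genes detected as a covariate, the G2/M genes had -0.21, 0.37 and -0.51 and the S phase genes -0.15, 0.13 and -0.28, so that in both comparisons with R499 the order of the lists turned.

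The members with an E2F match in their promoter window and those without can be set side by side. In R499 minus B16, all 12 with a match were lower, with a median difference of -0.51, and 10 of the 17 without a match were lower, with a median of -0.20, beside 64.1% lower among all genes. In B16PD1 minus B16, 7 of the 12 and 6 of the 17 were lower, with medians of -0.03 and 0.09, beside 47.0% lower among all genes. In R499 minus B16PD1, 12 of the 12 and 15 of the 17 were lower, with medians of -0.60 and -0.51, beside 67.2% lower among all genes. Over cells, the mean correlation with the other members (rank of genes detected removed, as described further on) had a median of 0.17 in those with a match and 0.16 in those without. The genes with a match include Dtl, Mcm6, Uhrf1, Pold3, Cdca7 and Pola1 of the 10 members with an unadjusted p under 0.05, and those without include Cdc45, Fen1 and Wdr76, whereas Atad2 had no window. This grouping was made after the values were known and was not tested.

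Between cells of a tumor, the members varied together. Spearman correlations of log2(TPM + 1) were computed within each tumor and averaged over the 6 tumors, so that differences between tumors did not enter. Over the 741 pairs of members the median rho was 0.18, and 740 pairs had a positive mean. For the 37 members detected in at least 10% of cells the median was 0.19, against 0.07 over all pairs of the 8139 genes detected in at least 10% of cells. A positive mean was found for 99.8% of the pairs of these members, against 88.9% of all pairs. The number of genes detected differs between cells and is shared by all pairs. With the rank of genes detected removed the medians were 0.16 for these members and 0.00 for all pairs, and 98.6% against 51.3% of pairs were positive. Of the 741 pairs, 480 were above 0 in all 6 tumors, and 405 with genes detected removed, a count that was not made over all pairs of genes. The medians by tumor were 0.17 and 0.20 (B16), 0.22 and 0.21 (B16PD1) and 0.16 and 0.12 (R499), over 75 to 91 cells each.

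Rrm2 stood closest to the rest, with a mean rho of 0.27 with the other 38 members, followed by Uhrf1 (0.25), Mcm6 (0.25), Mcm5 (0.25) and Mcm4 (0.22). The closest pairs were Mcm5 with Rrm2 (0.43, with 0.36 to 0.54 in single tumors), Mcm6 with Rrm2 (0.43, 0.35 to 0.55) and Mcm6 with Tipin (0.39, 0.23 to 0.54). Uhrf1 and Hells, which act on DNA methylation, had a rho of 0.37, and the subunits Rrm1 and Rrm2 of one enzyme also 0.37, but from 0.03 to 0.53 between tumors. The members that varied least with the rest were Usp1 (0.09), Ubr7 (0.10) and Ung (0.10), and they were closer to the number of genes detected (rho of 0.22, 0.24 and 0.20) than to the other members. That held for several further members too, such as Nasp (0.29 against a mean rho of 0.21) and Casp8ap2 (0.24 against 0.12). Ubr7 was detected in 48.3% of cells, a share close to the 50.7% of Mcm5.

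**Figure D4:**
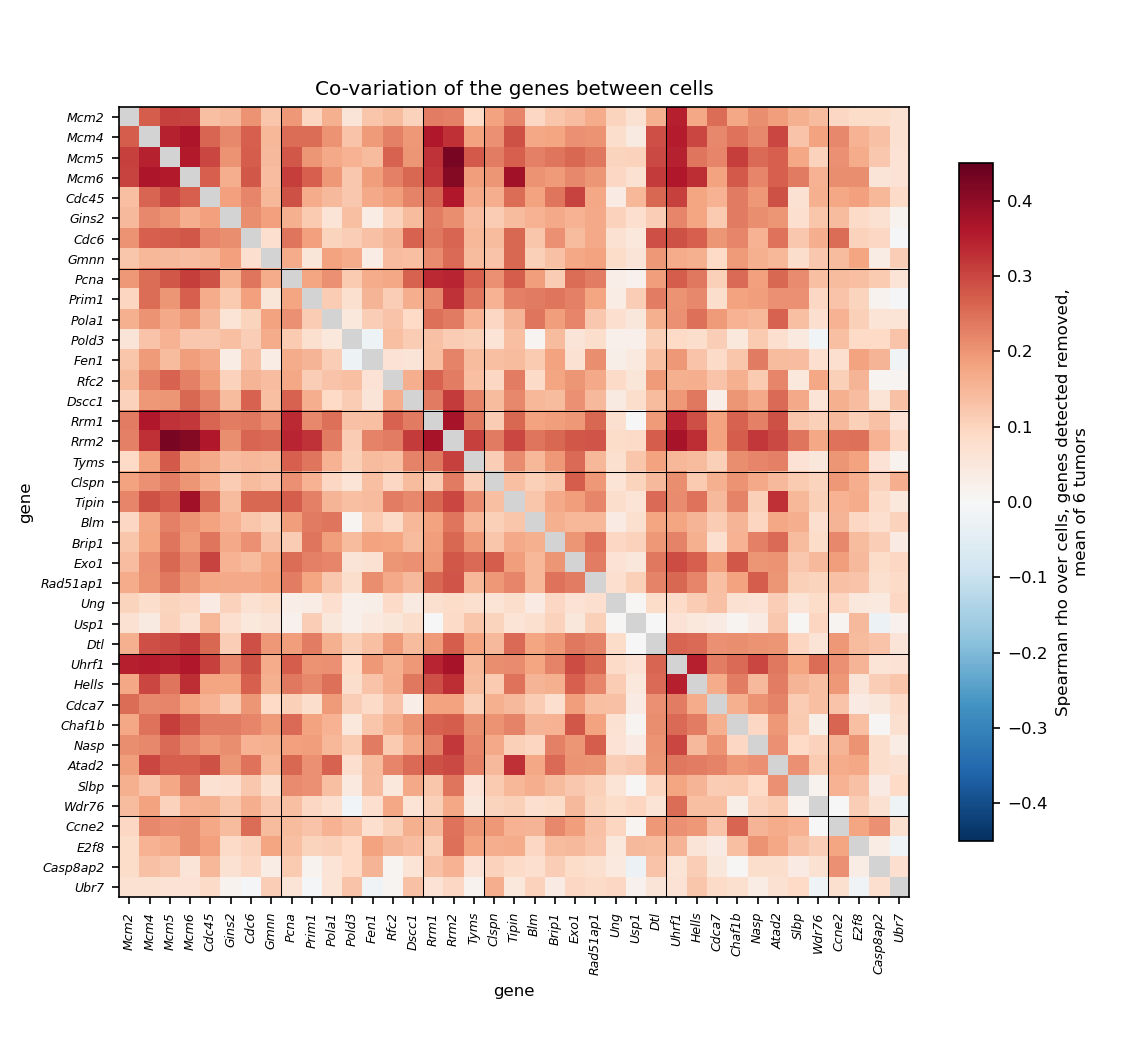
Spearman rho between each pair of the 39 genes over cells, with the rank of genes detected removed, computed within tumors and averaged over the 6 tumors, in red above 0 and blue below 0 (the diagonal is grey). Rows and columns of Rrm2, Mcm5, Mcm6 and Uhrf1 are the reddest, with 0.43 for Mcm5 and Rrm2, and those of Usp1, Ung and Ubr7 the palest.

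Outside the 39, the genes most like the mean level of the members over cells were Pclaf, a PCNA-binding factor (rho 0.59), Tk1, thymidine kinase (0.52), Mcm3 (0.51), Rfc5 (0.49) and Cdk1, the mitotic kinase (0.48), among 11225 genes ranked by the mean rho over 6 tumors. With genes detected removed, the first were Tuba1b, an alpha tubulin gene (0.57), Pclaf, Tk1 and Mcm3, and of the first 20, 10 were in the list of 75 replication genes and 4 in the G2/M list. The mean level of the members and that of the 53 G2/M genes had a rho of 0.66 over cells, from 0.58 to 0.77 between tumors, and 0.59 with genes detected removed.

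Counting detected members cell by cell gave medians of 16 and 15 (B16), 17 and 16 (B16PD1) and 14 and 15 (R499), and single cells ran from 0 to 39 members. At least 20 members were detected in 34.1% (25.2% to 44.3%) and 31.4% (22.6% to 41.8%) of B16 cells, in 43.0% (33.1% to 53.6%) and 37.5% (28.1% to 47.9%) of B16PD1 cells, and in 17.3% (10.6% to 26.9%) and 28.0% (19.1% to 39%) of R499 cells. Neither R499 tumor reached a B16 tumor and neither B16 tumor reached a B16PD1 tumor, but the intervals of neighbors in this order overlapped. The mean share was 32.7% ± 1.89 for B16, 40.3% ± 3.91 for B16PD1 and 22.6% ± 7.58 for R499 (SD, n = 2 tumors each).

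The number of members detected followed the number of genes detected, with a rho of 0.62 over cells within tumors. Among cells in the lowest quartile of genes detected (cells up to 2629.5 genes), the mean of the 2 tumors was 10.4 members in B16, 10.4 in B16PD1 and 8.76 in R499. In the second quartile it was 15.3, 15.6 and 13.2, in the third 18.3, 19.6 and 18.5, and in the highest (above 4622.5 genes) 21.2, 23.0 and 19.9. R499 was thus below B16 at 3 of the 4 depths and level with it in the third, and B16PD1 was above B16 by over 1 member only in the upper 2 quartiles.

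**Figure D5:**
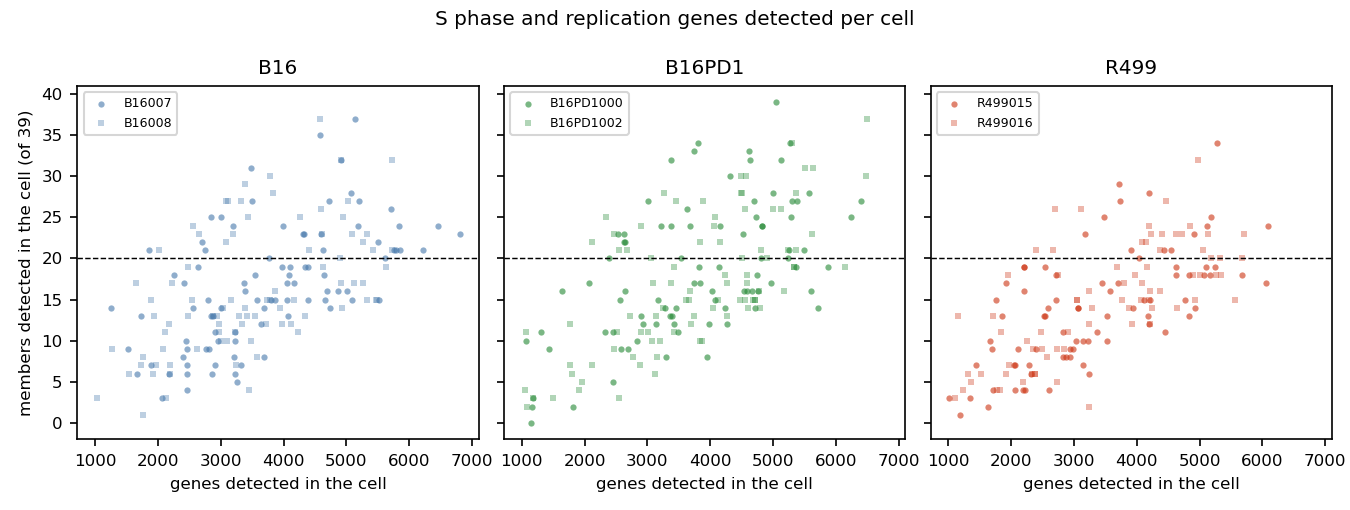
Number of the 39 genes detected in each retained cell (vertical axis) against the number of all genes detected in it (horizontal axis), in 3 panels by condition, with circles and squares for the 2 tumors and a dashed line at 20 members. Cells at or above the line make up 34.1% and 31.4% (B16), 43.0% and 37.5% (B16PD1) and 17.3% and 28.0% (R499) of the cells of single tumors.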

How the data were processed

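Single cells of 6 mouse tumors in 3 conditions were measured by full-length RNA sequencing. The authors aligned reads with STAR, quantified with RSEM and deposited TPM values for every cell, unfiltered. The submitters' processing notes name mm10 and GATK, and the annotation is not given in the sources used here. Cells with more than 1000 genes detected and under 10% mitochondrial TPM, and genes in more than 5 such cells, were kept. The study's limit on mapped reads could not be applied to TPM, doublets were not called, and read depth is unknown.

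Tumor means of log2(TPM + 1) were fitted with limma 3.58.1 in R 4.3.3 (eBayes with trend, all 6 tumors, two-sided, Benjamini-Hochberg over 11264 genes). Shares have 95% Wilson intervals. Other steps used Python 3.11.15, numpy 2.4.6, pandas 2.3.3, scipy 1.17.1, statsmodels 0.14.6 and matplotlib 3.10.9. The fit and the correlations were tested on simulated data.

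The members and lists were chosen with earlier results of these data known. Tumor values are given for the 5 members with the highest mean TPM, the 5 largest differences without overlap in each comparison, those with an unadjusted p under 0.05 and the 5 with the highest mean correlation. Of the second list, those with an unadjusted p under 0.05 and the 3 highest by mean TPM are named, and of all other genes the 5 most like the members. Alternatives were pseudocounts of 0.1 and 10, the log2 of the mean TPM plus 1, other filters on cells and genes, cell means subtracted, genes detected as covariate or weight, limma without trend, and leaving out each tumor.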

Additional observations from a re-analysis of the deposited data

How the results depend on the processing

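No member passed an adjusted p of 0.05 in any comparison under any of the alternatives. The count below B16 in R499 was 14 to 24 of 39 over all alternatives, from 18, but the share of all genes moved too. It was 24.4% with the 14 (the log2 of the mean TPM plus 1), 42.2% and 49.7% with the 24 (without R499015 and without R499016) and 52.0% with 23 (without B16008), against 30.1%. The median difference of R499 minus B16, -0.32, was -0.45 with a pseudocount of 0.1, -0.16 with 10 and -0.15 with genes detected as covariate, and lay between -0.36 and -0.28 with a tumor left out. That of R499 minus B16PD1, -0.48, was -0.78, -0.21 and -0.28 under the same settings, -0.33 with the log2 of the mean TPM plus 1, -0.34 with cell means subtracted, and between -0.52 and -0.36 with a tumor left out, the last without B16PD1000. The count of members above B16 in B16PD1, 14, was 8 with the log2 of the mean TPM plus 1 and 14 to 23 with a tumor left out, and the median difference, 0.07, was 0.014 to 0.20, both highest without B16PD1002. Here too the share of all genes moved. It was 12.3% with the 8, 33.6% with 15 (without B16PD1000), 40.9% with 19 (without B16007), 29.5% with 21 (without B16008) and 36.4% with the 23, against 17.9%. In single genes, Pola1 and Pold3 in R499 minus B16 turned to 0.32 and 0.083 with the log2 of the mean TPM plus 1, and the cause was not tested. These belong to 31 differences that had an unadjusted p under 0.05 or were among the 5 largest without overlap of their comparison. The other 556 values of the 31 kept their sign, though part of them had to. Other filters on genes, limma without trend and leaving out a tumor outside the comparison leave a difference as it was. The differences also stayed above an adjusted p of 0.05 outside the fits with a tumor left out, and no member passed it in the main fit either. Many of the 31 did not stay under an unadjusted p of 0.05, as given above. Over all 39 members, the sign turned under at least 1 alternative for 15 in R499 minus B16, 24 in B16PD1 minus B16 and 14 in R499 minus B16PD1, among them Rrm1, Mcm2 and Mcm5 in the first and Rad51ap1 and E2f8 in the second. Weighting cells by genes detected was chosen after seeing the data. No paired analysis was possible because the cells carry tumor numbers that are not the replicate numbers of the labels. With 2 tumors a condition, the differences of the members did not pass the adjustment over 11264 genes, and depth in reads, which limits detection, is unknown.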
